A study of Mus musculus with 17 samples.

Results

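The 32 genes described here encode proteins of the Fanconi anaemia pathway and of homologous recombination. They were taken by symbol from the 21848 genes of the deposited count matrices by a rule that lists names and no measured value, though the list was drawn up with earlier results of these data known, and all 32 were found. They comprise the Fanconi core complex (*Fanca*, *Fancb*, *Fancc*, *Fance*, *Fancf*, *Fancg*, *Fancl* and *Fancm*), the ID2 complex (*Fancd2* and *Fanci*), the BRCA group (*Brca1*, *Bard1*, *Brip1*, *Palb2* and *Brca2*), the strand-pairing mediators (*Rad51b*, *Rad51c*, *Rad51d*, *Xrcc2* and *Xrcc3*), strand exchange and annealing factors (*Rad54l*, *Rad54b* and *Rad52*), end resection factors (*Rbbp8*, *Mre11a*, *Rad50* and *Nbn*) and factors that dissolve or cut joined DNA molecules (*Blm*, *Rmi1*, *Slx4*, *Eme1* and *Mus81*).

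Homologous recombination repairs a broken chromosome by copying the intact sister chromatid, and so operates mainly in S and G2 phases, when a sister is present. Broken ends are resected to single strands, BRCA2 and its partners prepare these strands for pairing with the sister, and the joined molecules are later dissolved or cut apart. The Fanconi core complex ubiquitinates FANCD2 and FANCI at DNA interstrand crosslinks and stalled forks and hands these lesions to the same machinery. Germinal centre (GC) B cells divide rapidly in the dark zone (DZ) and carry programmed DNA lesions, and both pathways serve their genome. In the core complex FANCL is the ubiquitin ligase and FANCM anchors the complex to DNA, while FANCA, FANCB, FANCC, FANCE, FANCF and FANCG are its structural subunits. PALB2 bridges BRCA1 and BRCA2, and BRIP1 is a helicase that binds BRCA1. MRE11, RAD50 and NBN form the complex that first binds a broken end, the strand-pairing mediators assist the search for the sister, RMI1 works with BLM, and SLX4 is a scaffold for nucleases such as MUS81 with EME1.

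The study followed GC B cells through the divisions that follow a strong pulse of T cell help. In the time course, recipient mice (CD45.1) primed with ovalbumin (OVA) received NP-specific B1-8hi B cells, of which a minority expressed the receptor DEC-205 and the rest were *Ly75*-/-, and were immunized with NP-OVA in the footpad. At day 7 some mice received anti-DEC-OVA, an antibody that delivers OVA to cells with DEC-205 and so recruits T cell help to them. GC B cells were taken at 0 h (9 mice), 48 h untreated (6), 48 h anti-DEC-OVA-treated (9), 72 h untreated (8) and 72 h anti-DEC-OVA-treated (7), in 2 experiments of 25 and 14 mice. The study describes the cells of this time course as GC B cells that express DEC-205. In a further experiment, GC B cells with a *Rosa26* DHB-tdTomato reporter, some also with H2B-GFP, were taken 72 h after anti-DEC-OVA and sorted by image. Cells with a cytoplasmic reporter (C, CDK2hi) and those with a nuclear reporter (N, CDK2low) of 7 mice were analysed. The study compared these populations among cells with a DZ expression profile. No filter on zone was applied here, so C and N may hold cells from outside the DZ in unlike shares. Adult mice of both sexes on a C57BL/6 background were used, and untreated mice carried the same transferred cells and immunization as treated mice.

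The cells of each mouse were marked with hashtag antibodies, a pair of them in the time course and a single one in C and N, and pooled with those of other mice for 5′ single-cell RNA sequencing, which counts unique molecular identifiers (UMIs). UMIs were summed per mouse, so that the mouse and not the cell was the replicate, and levels are given as UMIs of a gene scaled to a common library total (CPM). The summed depth was 1984426 to 13373185 UMIs per mouse in the time course and 3988733 to 20394909 in C and N. Pairs of libraries shared 6 to 94 cell barcodes. Because C and N were 1 library each, the sorted population and the library cannot be told apart. In every mouse the B cell markers *Cd79a* and *Ms4a1* and the GC markers *Bcl6*, *Fas* and *Mef2b* were at 111 CPM or more and *Rgs13*, the lowest of the 8 GC B cell markers measured, at 40.9 CPM or more, whereas the 6 measured T cell markers summed to at most 55.2 CPM. Myeloid markers summed to 119 to 465 CPM, of which *Cst3* gave 109 to 288 CPM, and *Csf1r* was at 0 in 30 of the 53 mouse samples. Fewer cells in a phase and less RNA per cell of a gene cannot be told apart in these sums, and the values within called phases are therefore given beside the main results.

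Promoters of 25 of the 32 members were found in the RefSeq table used (build GRCm38.p6), which covers the 250 bases before and 50 bases after each start. Motifs of cell-cycle promoters were searched on both strands. An E2F motif (TTTCGCGC, TTTGGCGC, TTTCCCGC or TTTGCCGC) lay in 5 of the 25 (*Bard1*, *Brca2*, *Fancg*, *Rad51c* and *Rmi1*) and in 2.61% of 27025 genes with a promoter in the table. CCAAT lay in 16 of the 25 against 41.1% of genes, and the CHR motif (TTTGAA or TTCGAA) in 3 of the 25 (*Bard1*, *Eme1* and *Rad51b*) against 21.7%. The stretches below, each 30 bases on the strand of the gene with the motif in capitals, are the 3 E2F matches that lie wholly before the start and the CCAAT match of *Brca1*, which was among the members with the largest differences between C and N. These stretches were chosen after the matches had been seen. The first motif base lies 209, 168, 52 and 86 bases before the annotated start, and the positions are chr1:71103163-71103192 (-), chr5:150522442-150522471 (+), chr4:43010335-43010364 (-) and chr11:101552024-101552053 (-). A match is a description of letters and does not show that a factor binds there.
*Bard1*: ccgccgctcagTTTCCCGCtcaggaagttt
*Brca2*: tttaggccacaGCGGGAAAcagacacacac
*Fancg*: tttcttttcagTTTCCCGCggaaccgtctc
*Brca1*: aagactaggtagCCAATcgcaaacccagaa

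The members differed widely in level and in how they followed the cell cycle. Cells were called G1, S or G2M from published phase genes, with all members left out of the scoring. Averaged over the 23 untreated mice, 24 members had their highest mean CPM in cells called S, 4 in G2M (*Fancd2*, *Rmi1*, *Eme1* and *Mus81*) and 4 in G1 (*Fancc*, *Fance*, *Rad51d* and *Rad52*). In 21 members the S mean was more than 2 times the G1 mean. These are descriptions with no test, since the phases were called on the same cells. The same counts were not made over all genes, so they do not show that the members stand out from other genes.

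By the ratio of S to G1 the contrast was steepest for *Fancd2*, *Rad54l* and *Fanci*. *Fancd2*, the ubiquitinated target of the core complex, averaged 1.06 CPM in G1, 37.8 CPM in S and 44.1 CPM in G2M, and *Fanci*, its partner, 1.83, 32.8 and 21.2 CPM. *Rad54l*, a motor protein that helps strand exchange, averaged 2.18 CPM in G1 and 60.5 CPM in S, and *Brca1* 7.02 and 118 CPM. *Eme1*, the partner of the MUS81 nuclease, was highest in G2M in 23 of 23 untreated mice (35.7 CPM against 23.1 CPM in S and 2.32 CPM in G1). *Mus81* itself did not share this contrast, with 22.1 CPM in G1, 15.0 CPM in S and 22.4 CPM in G2M. Among the core complex, the ratio of the S mean to the G1 mean was 4.62 for *Fancb*, 2.69 for *Fancf*, 2.30 for *Fancg* and 2.06 for *Fanca*, but 1.08 for *Fancl*, 0.988 for *Fancc* and 0.961 for *Fance*. *Rad51d* differed from the other strand-pairing mediators, with 20.4 CPM in G1 and 15.3 CPM in S. The annealing factor *Rad52* likewise averaged 10.8 CPM in G1 and 7.03 CPM in S.

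**Figure D1:**
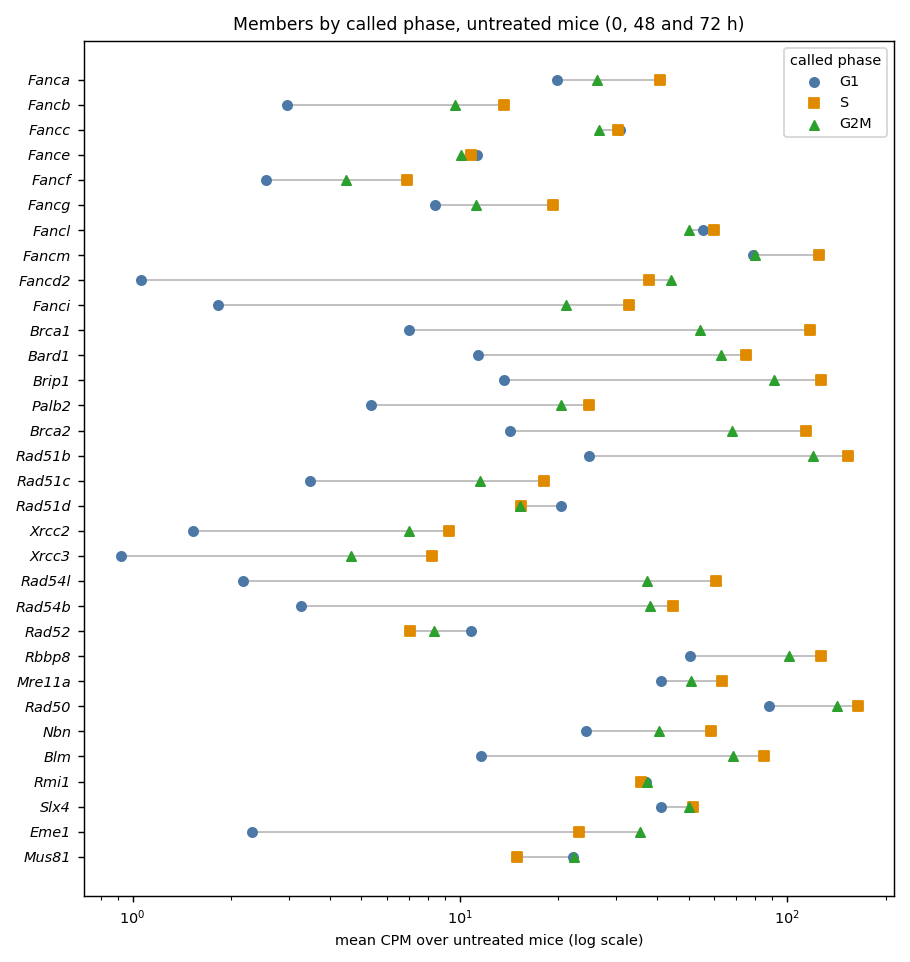
Mean CPM of the 32 members over 23 untreated mice (0, 48 and 72 h) in cells called G1, S and G2M, on a log axis, with a grey line from the lowest to the highest phase. *Fancd2*, *Fanci* and *Rad54l* lie near 1 to 2 CPM in G1 and above 20 CPM in S and G2M, whereas *Fancl*, *Rmi1* and *Fancc* keep close to 1 level.

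At 48 h, 20 of the 32 members were higher in treated than in untreated mice and 0 were lower (edgeR quasi-likelihood test, adjusted p under 0.05 over all 10220 genes tested, with a term for the experiment). Over all genes 26.3% were called higher and 21.1% lower, so the members' share of 20 in 32 was larger than that of all genes. The median log2 fold change of the members was 0.25, against 0.01 over all genes. The members that rose included all 5 of the BRCA group, both of ID2 and all 4 of end resection. In the core complex 2 of 8 rose (*Fancb* and *Fancf*), with 2 of 5 strand-pairing mediators (*Rad51c* and *Xrcc2*), 2 of 3 strand exchange and annealing factors (*Rad54l* and *Rad54b*) and 3 of 5 dissolution and resolution factors (*Blm*, *Slx4* and *Eme1*). Not called were *Fanca*, *Fancc*, *Fance*, *Fancg*, *Fancl*, *Fancm*, *Rad51b*, *Rad51d*, *Xrcc3*, *Rad52*, *Rmi1* and *Mus81*. When the libraries were scaled by their totals alone in place of TMM factors, 14 members were higher and 1 (*Rad52*) was lower. Under that scaling 4967 of all genes were called in either direction, against 4843 with TMM factors, and the median over all genes was -0.065.

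The largest rise over both experiments was that of *Xrcc2* (chr5:25802020-25910827, GRCm39), a strand-pairing mediator. Its lowest, median and highest CPM were 3.75, 5.49 and 7.44 in the 6 untreated mice at 48 h and 6.68, 7.87 and 9.47 in the 9 treated mice. The groups overlapped, since the mice of the smaller experiment lay near the top of the untreated range. The log2 fold change was 0.56 (SE 0.13, 1.47-fold, edgeR adjusted p = 0.000616). It was 0.72 in the larger but 0.21 in the smaller experiment, where *Rad51c* (0.48), *Fancf* (0.46) and *Brca2* (0.41) had larger values.

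*Brca2* (chr5:150446057-150496080), which acts on resected single-stranded DNA, ran from 53.7 to 81.7 CPM in untreated mice (median 61.1) and from 73.9 to 106 CPM in treated mice (median 83.4). In the larger experiment alone the groups did not overlap (53.7 to 61.7 against 73.9 to 85.1 CPM). Its log2 fold change of 0.50 (SE 0.07) had an edgeR adjusted p of 1.84e-07, and it was 0.50 in the larger and 0.41 in the smaller experiment.

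*Eme1* (chr11:94535822-94544812) rose without overlap between the groups, the only member to do so over both experiments. Such separation was not counted over all genes. Untreated mice ranged from 19.0 to 26.03 CPM (median 20.1) and treated mice from 26.3 to 32.9 CPM (median 27.9). The log2 fold change was 0.46 (SE 0.10, edgeR adjusted p = 0.000158), though it was 0.57 in the larger and 0.19 in the smaller experiment.

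*Brca1* (chr11:101379577-101442781), the ubiquitin ligase that directs ends to recombination, had a median of 55.5 CPM in untreated mice (48.9 to 86.7) and of 71.3 CPM in treated mice (65.1 to 91.3). *Blm* (chr7:80104481-80184899), the helicase that dissolves joined molecules, went from a median of 52.2 CPM (44.6 to 75.9) to 68.1 CPM (59.7 to 85.1). Both groups overlapped in the ranges, again through the mice of the smaller experiment, whose levels of these genes were higher in treated and untreated mice alike. Each had a log2 fold change of 0.41, with SE 0.07 for *Brca1* and 0.08 for *Blm* (edgeR adjusted p of 1.97e-05 and 2.88e-05).

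*Fancf* (chr7:51510325-51512015), an adaptor of the core complex, was counted with only 5 to 102 UMIs per mouse. It ranged from 3.43 to 5.13 CPM in untreated mice (median 4.38) and from 4.69 to 8.10 CPM in treated mice (median 5.53), with a log2 fold change of 0.50 (SE 0.16, edgeR adjusted p = 0.00811). By contrast, *Fancm*, which encodes the translocase that anchors the core complex to DNA, ranged from 83.4 to 114 CPM untreated and from 78.7 to 105 CPM treated, and its difference of -0.04 (SE 0.05, edgeR adjusted p = 0.593) did not pass.

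The ID2 genes were called over both experiments, but the separate values were apart, and that gap was not tested. *Fanci* was at 0.43 in the larger and at 0.0052 in the smaller experiment (edgeR adjusted p = 0.981 there). *Fancd2* ranged from 20.9 to 39.5 CPM in untreated mice (median 23.5) and from 27.7 to 42.5 CPM in treated mice (median 31.8), with a log2 fold change of 0.38 (SE 0.11, edgeR adjusted p = 0.00282). In the larger experiment the groups were apart (20.9 to 24.3 against 27.7 to 34.2 CPM). In the smaller experiment 2 untreated mice (38.9 and 39.5 CPM) lay close below 3 treated mice (41.1 to 42.5 CPM). The resection gene *Rbbp8*, which encodes CtIP, rose from a median of 91.7 CPM (75.5 to 111) to 104 CPM (99.0 to 127), by 0.30 on the log2 scale (SE 0.05, edgeR adjusted p = 6.10e-06). *Rad54l* rose by 0.31 (SE 0.08, edgeR adjusted p = 0.000861), from a median of 33.9 to 39.2 CPM.

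**Figure D2:**
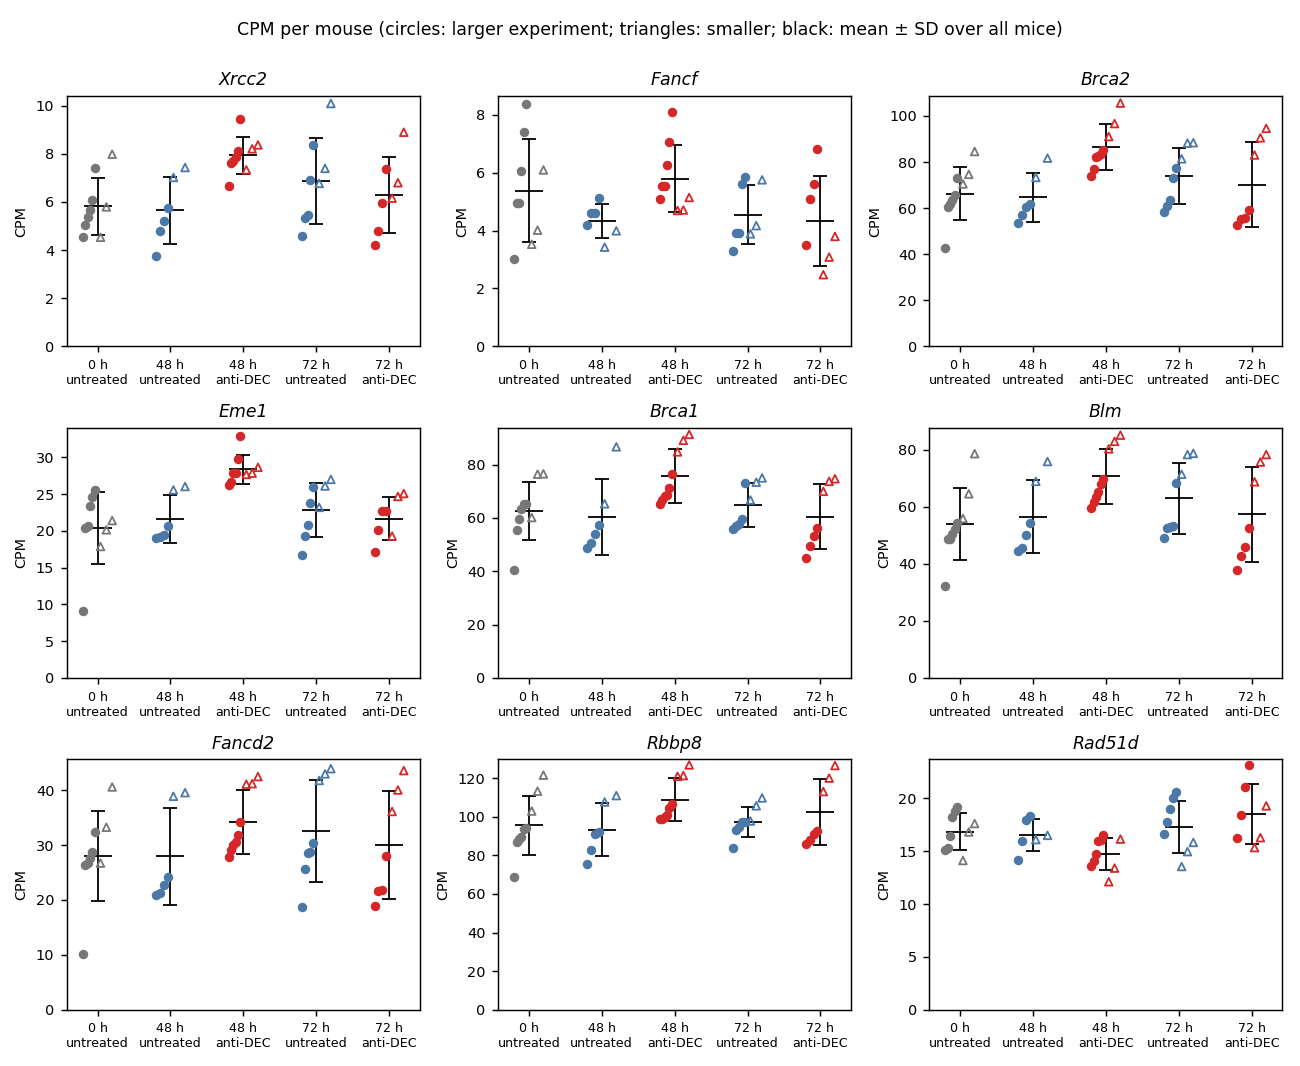
CPM of 9 members in each mouse of the 5 time-course groups, with circles for the larger and triangles for the smaller experiment and black lines for the mean ± SD over all mice of a group. The 9 treated mice at 48 h lie above the untreated mice for *Eme1* (26.3 to 32.9 against 19.0 to 26.03 CPM), and for *Blm* every mouse of the smaller experiment lies above those of the larger experiment in the same group.

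The 2 experiments were also tested apart, and the gap between their values was not tested. Each experiment tested alone gave 15 members higher (larger) and 5 higher (smaller: *Brca2*, *Rad51c*, *Rbbp8*, *Rad50* and *Slx4*), with 0 lower in both. Calls over all genes, in either direction, were 3838 in the larger and 2149 in the smaller, against 4843 with both. Shares of all genes were not worked out for either experiment alone, so the members' share was not compared there. The larger experiment alone gave the same direction for all 20 members and the smaller for 19, with *Bard1* at -0.05 there. Their median log2 fold change was 0.33 for the larger and 0.21 for the smaller experiment, whose 48 h untreated group had 2 mice. These 20 members were chosen by the test on both experiments together. Their shared direction and these medians are therefore no independent support. In the time course *Rad51b* differed more between the experiments than between the groups of either, at 66.1 to 93.4 CPM in the larger and 132 to 190 CPM in the smaller. When only cells with the paired B1-8hi receptor were kept, 10 members were higher and 0 lower. Calls over all genes with this filter were 3400 in either direction, again with no share worked out. The methods of the study describe such a filter, whereas the main counts here use all kept cells. Cells with this receptor were 9208 of 13625 kept cells in the larger and 4369 of 10073 in the smaller experiment.

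The share of cycling cells moved with these differences. Cells called G1 were 14.5% to 22.5% of cells in the 9 treated mice at 48 h and 42.4% to 55.0% in the 6 untreated mice (10.3% to 20.8% and 32.8% to 54.1% after thinning each cell to 2871 UMIs, which left out 2367 cells of the time course). UMIs per cell moved too, with a median of 10004 to 14467 in treated and 5030 to 7455 in untreated mice, while the median share of mitochondrial UMIs was 2.18% to 4.43% and 2.29% to 4.88%. The 8 GC B cell markers summed to 3297 to 4231 CPM in treated and 4108 to 5023 CPM in untreated mice, and the 6 measured T cell markers to 0.377 to 4.51 against 5.77 to 10.3 CPM. The naive or memory B cell markers, of which all 6 were measured, summed to 93.3 to 192 CPM in treated and 233 to 408 CPM in untreated mice. The 5 plasma cell markers summed to 1183 to 1990 against 767 to 1495 CPM, with *Sdc1* at 0 in 4 of the 53 mouse samples. Over these 53 samples the median was 966 CPM for *Jchain* and 142 CPM for *Xbp1*. It was 0.88 CPM for *Sdc1*, 1.58 CPM for *Prdm1* and 0.25 CPM for *Tnfrsf17*. Among the naive or memory markers *Fcer2a* had the highest median, at 230 CPM, with *Klf2* next at 21.3 CPM. The part of phase shares, depth and these markers in the result was not tested.

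Within called phases few members were called. In cells called S, 2 members were higher (*Rbbp8* and *Slx4*) and 2 lower (*Fancg* and *Rad51b*) of 32 tested, where 7.73% of all genes were called higher and 7.15% lower. In cells called G2M 1 member was higher (*Brca2*) and 0 lower, against 8.11% and 8.42% of all genes. In cells called G1, where 22 members had enough counts to be tested, 0 were called in either direction (4.05% and 3.65% of all genes), with 3 at an unadjusted p under 0.05 by edgeR and 0 called by DESeq2. The 10 not tested in G1 were *Fancb*, *Fancf*, *Fancd2*, *Fanci*, *Rad51c*, *Xrcc2*, *Xrcc3*, *Rad54l*, *Rad54b* and *Eme1*.

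*Brca1*, which differed by 0.41 over all cells, averaged 120 ± 21.8 CPM (SD, n = 6) in S-phase cells of untreated mice and 114 ± 11.9 CPM (SD, n = 9) in those of treated mice, a log2 fold change of -0.04 (SE 0.06, edgeR adjusted p = 0.712). *Eme1* in G2M cells averaged 34.8 ± 4.41 CPM (SD, n = 6) untreated and 36.3 ± 3.15 CPM (SD, n = 9) treated, a difference of 0.08 (SE 0.09, edgeR adjusted p = 0.592). *Fancd2* differed by -0.05 (SE 0.11) in S and by -0.01 (SE 0.09) in G2M. The within-phase and overall differences were not tested against each other.

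The calls within S and G2M made up no larger a share of the members than of all genes. *Brca2* in G2M cells averaged 63.2 ± 6.31 CPM (SD, n = 6) untreated and 72.3 ± 8.11 CPM (SD, n = 9) treated (log2 fold change 0.23, SE 0.07, edgeR adjusted p = 0.0275). *Slx4*, a scaffold for nucleases, averaged 46.5 ± 10.3 and 55.5 ± 8.48 CPM in S (0.29, SE 0.09, edgeR adjusted p = 0.0206), and *Rbbp8* ranged from 99.4 to 154 and from 115 to 150 CPM (0.17, SE 0.06, edgeR adjusted p = 0.0479). *Rad51b* was lower in S, at 153 ± 53.9 CPM untreated and 113 ± 29.6 CPM treated (-0.37, SE 0.07, edgeR adjusted p = 0.000274), as was *Fancg*, at 20.2 ± 3.77 and 15.1 ± 2.10 CPM (-0.36, SE 0.13, edgeR adjusted p = 0.0430). In S, 0 members were higher with thinned cells, with the highest hashtag, with phases called on thinned cells, with no term for the experiment and in either experiment alone. The call of *Brca2* in G2M was lost with B1-8hi cells only, thinned cells, no term for the experiment, library totals and either experiment alone.

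**Figure D3:**
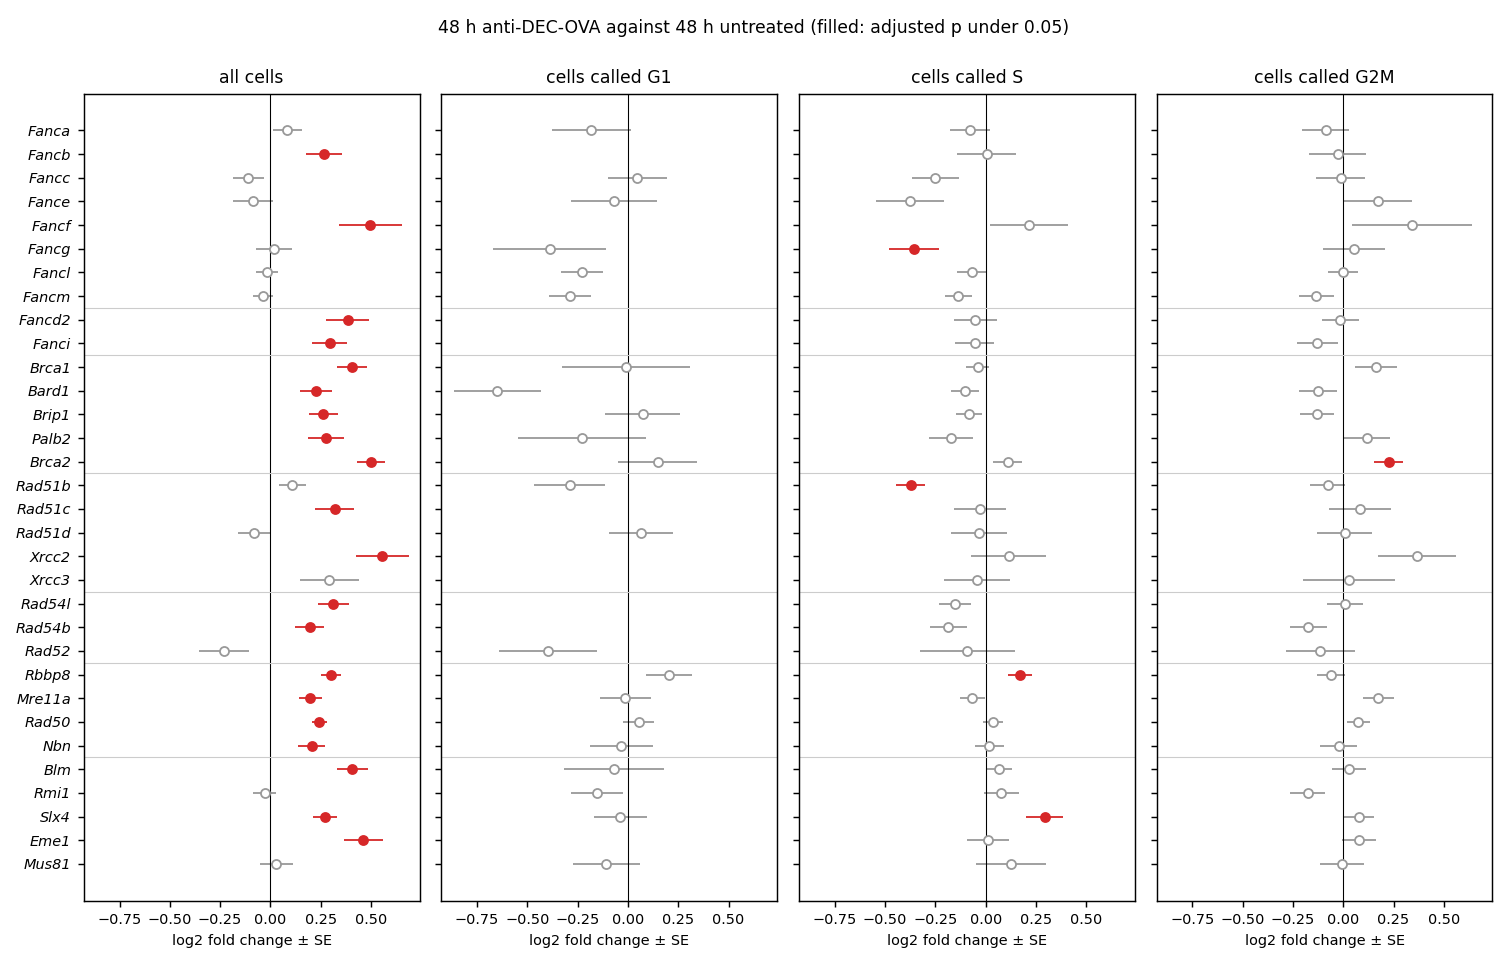
Log2 fold change ± SE of each member, 48 h anti-DEC-OVA against 48 h untreated, over all cells and within cells called G1, S and G2M, with filled points past an adjusted p of 0.05 and lines between role groups. Over all cells 20 points are filled and lie to the right of 0, and within G1, S and G2M 0, 4 and 1 are filled; members without a point in G1 were not tested.

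At 72 h the test called 0 of 32 members in either direction between treated and untreated mice, by edgeR and by DESeq2 (4.67% of all genes were higher and 3.88% lower), and 3 had an unadjusted p under 0.05 by edgeR. *Brca2* ranged from 58.4 to 88.4 CPM in untreated mice (median 75.4) and from 52.8 to 94.6 CPM in treated mice (median 59.1). These medians pool the experiments. Its log2 fold change was -0.26 in the larger and 0.02 in the smaller experiment (edgeR adjusted p of 0.0920 and 0.991). *Eme1* ranged from 16.7 to 27.0 CPM and from 17.1 to 25.1 CPM, and its difference was -0.08 (SE 0.11, edgeR adjusted p = 0.738). Cells called G1 were 37.8% to 53.0% in untreated and 31.8% to 55.0% in treated mice at this time.

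In treated mice 21 members fell from 48 h to 72 h and 1, *Rad51d*, rose (22.3% of all genes were called higher and 26.8% lower). This comparison shares the 48 h treated mice with the one above, and its values are given beside them. Cells called G1 went from 14.5% to 22.5% at 48 h to 31.8% to 55.0% at 72 h, and median UMIs per cell from 10004 to 14467 down to 5495 to 8673. Naive or memory B cell markers summed to 93.3 to 192 CPM at 48 h and 190 to 319 CPM at 72 h, GC B cell markers to 3297 to 4231 and 4034 to 5439 CPM, and plasma cell markers to 1183 to 1990 and 880 to 1237 CPM. Their part in the fall was not tested. *Eme1* and *Xrcc2* fell by 0.48 each (SE 0.10 and 0.13, edgeR adjusted p of 8.63e-05 and 0.00269), *Xrcc3* by 0.48 (SE 0.15, edgeR adjusted p = 0.00751), *Brca2* by 0.48 (SE 0.07, edgeR adjusted p = 2.30e-07) and *Brca1* and *Blm* by 0.47 each (SE 0.07 and 0.08, edgeR adjusted p of 1.09e-06 and 2.32e-06). The others that fell were *Fancb*, *Fancf*, *Fancd2*, *Fanci*, *Bard1*, *Brip1*, *Palb2*, *Rad51c*, *Rad54l*, *Rad54b*, *Rbbp8*, *Mre11a*, *Rad50*, *Nbn* and *Slx4*. *Rad51d* went from a median of 14.7 CPM (12.1 to 16.5) to 18.4 CPM (15.3 to 23.1), a log2 fold change of 0.23 (SE 0.08, edgeR adjusted p = 0.0127). With library totals in place of TMM factors 15 fell and 3 rose (*Rad51d*, *Fancc* and *Fancl*), with 5346 of all genes called against 5019 with TMM factors. With 0 rising, 13 fell with thinned cells (2707 of all genes called), 12 with no term for the experiment (3104) and 5 in the smaller experiment alone (2661).

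The signed log2 difference between treated and untreated mice was higher at 48 h than at 72 h for 17 members and lower for 0 (18.5% and 13% of all genes), by a test of the difference of the differences. In most of these 17 members the values at 48 h and 72 h had opposite signs. For *Rad51b* (0.11 at 48 h and -0.14 at 72 h) and *Xrcc3* (0.29 and -0.34) the value at 72 h was also the larger in size. Neither of these genes was called at either time. The difference was largest for *Xrcc2* (0.72, SE 0.20, edgeR adjusted p = 0.00498), *Brca2* (0.64, SE 0.10, edgeR adjusted p = 1.29e-05) and *Xrcc3* (0.63, SE 0.22, edgeR adjusted p = 0.0264). With library totals 8 members passed (3345 of all genes, against 3217 with TMM factors), with B1-8hi cells only 9 (1984), with thinned cells 7 (1605), with no term for the experiment 5 (1222) and in the smaller experiment alone 0 (768).

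In untreated mice 0 members were called between 0 h and 48 h by edgeR and by DESeq2 (0.0587% of all genes were higher and 0.0685% lower), with 1 at an unadjusted p under 0.05. Between 0 h and 72 h 0 were called by edgeR (1.79% and 2.62% of all genes), with 2 at an unadjusted p under 0.05. DESeq2 called 1 there, *Rad51b*, and 499 of all genes in either direction. Summed over the 32 members, the mean level was 1286 ± 185 CPM (SD, n = 9) at 0 h, 1276 ± 217 CPM (SD, n = 6) at 48 h and 1346 ± 183 CPM (SD, n = 8) at 72 h untreated. One 0 h mouse, with 312 cells and 66.7% of them called G1, had the lowest level in its group of 20 members, *Fancd2*, *Brca1* and *Eme1* among them. Without it 19 members were called at 48 h (4964 of all genes). Against 0 h, 0 were called at 48 h and 72 h untreated (10 and 420 of all genes).

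The reporter pools gave the widest differences. At 72 h after anti-DEC-OVA 26 members were higher in C (CDK2hi) than in N (CDK2low) cells of the same 7 mice and 2 were lower (*Fancc* and *Rad51d*), by an edgeR test with the mouse as a block (36.5% of all genes were called higher and 38.6% lower). *Fance*, *Fancl*, *Rad52* and *Mus81* were not called. The median log2 fold change was 0.87 over the members and -0.02 over all genes. The 32 members summed to 1528 to 1705 CPM in C and 916 to 1087 CPM in N. In 19 members every C value lay above every N value, and in 1 (*Rad51d*) every C value lay below. Such separation was not counted over all genes. Scaling by library totals lowered the median of all genes from -0.02 to -0.22, and then 24 members were higher and 6 lower (*Fancc*, *Fance*, *Fancl*, *Rad51d*, *Rad52* and *Mus81*). Under that scaling 8233 of all genes were called in either direction, against 7596 with TMM factors. The CPM and ratios given for single mice are on library totals, and the fold changes of the test on TMM factors.

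*Fancd2* (chr6:113508412-113573982) differed most. It ran from 3.23 to 8.24 CPM in N (median 5.32) and from 34.2 to 45.2 CPM in C (median 36.7), and the ratio of C to N within a mouse was 4.91 to 11.4. The groups did not overlap, and the log2 fold change was 2.96 (SE 0.08, edgeR adjusted p = 5.39e-21). *Eme1* ran from 4.85 to 8.52 CPM in N and from 31.9 to 37.3 CPM in C, with ratios of 3.84 to 7.10 and a log2 fold change of 2.72 (SE 0.08, edgeR adjusted p = 2.05e-20).

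*Rad54l* went from a median of 14.8 CPM in N (11.1 to 20.6) to 51.2 CPM in C (46.1 to 58.1), and *Rad54b*, its relative, from 12.5 CPM (10.4 to 21.4) to 46.9 CPM (39.4 to 49.6). *Brca1* went from 29.0 CPM (26.6 to 42.1) to 93.2 CPM (90.2 to 114), and *Bard1*, its dimer partner, from 24.8 CPM (19.4 to 32.4) to 67.5 CPM (65.7 to 78.1). All 4 were higher in C in 7 of 7 mice with no overlap. Their log2 fold changes were 1.98 (SE 0.07), 1.92 (SE 0.07), 1.82 (SE 0.06) and 1.75 (SE 0.06), with edgeR adjusted p of 2.67e-19, 2.30e-18, 3.78e-20 and 1.31e-19.

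The other called members were smaller in their difference. *Brip1*, *Blm*, *Fanci*, *Xrcc3*, *Fancb*, *Rad51b*, *Brca2*, *Xrcc2* and *Palb2* had log2 fold changes of 1.73 down to 1.05. *Rad51c* (0.94), *Rbbp8* (0.79), *Fancf* (0.70), *Fancg* (0.70), *Rad50* (0.64), *Nbn* (0.49), *Fanca* (0.42), *Slx4* (0.41) and *Mre11a* (0.31) followed. *Fancm* (0.17) and *Rmi1* (0.14) were called higher with TMM factors but were at -0.02 and -0.06 with library totals. *Rad51d* ran the other way, from 16.3 to 20.3 CPM in N and 11.1 to 15.2 CPM in C, lower in C in 7 of 7 mice (-0.30, SE 0.07, edgeR adjusted p = 0.000719). *Fancc* was at -0.13 (SE 0.06, edgeR adjusted p = 0.0403), and its ratio within a mouse was 0.660 to 0.997. Its call was lost without mouse 1, 3, 4 or 7 (edgeR adjusted p of 0.0708 to 0.171), and without the mouse as a block.

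**Figure D4:**
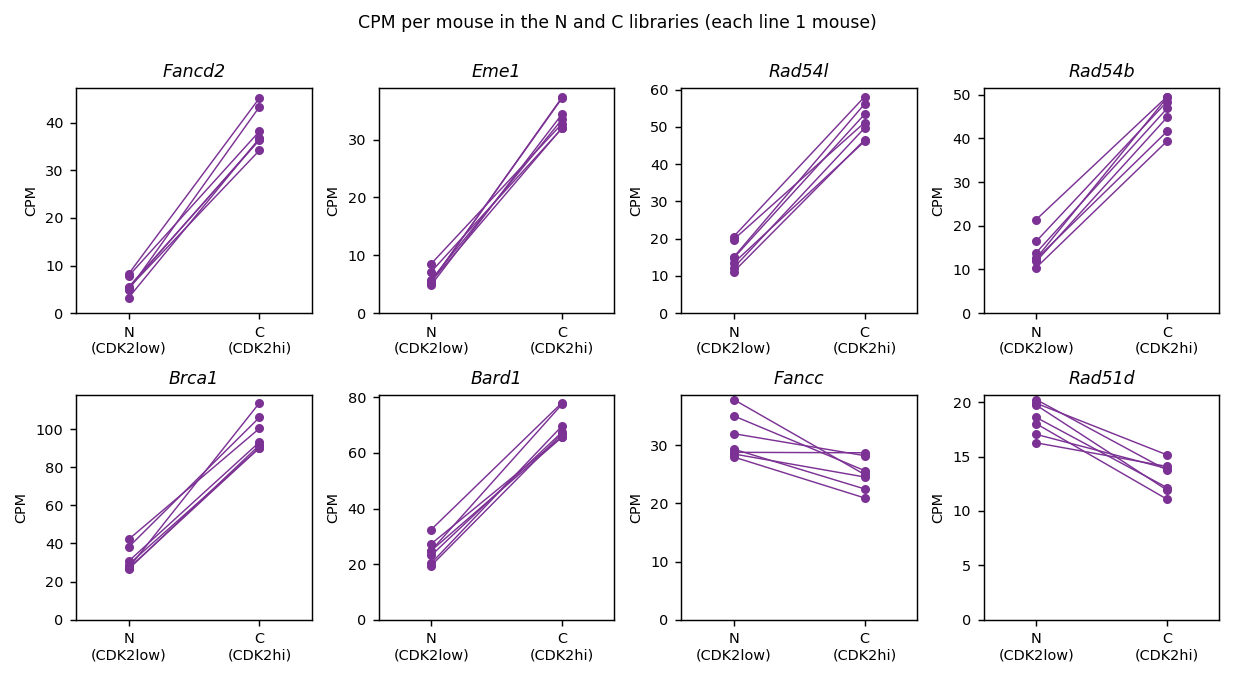
CPM of 8 members in the N and C libraries, each line joining the values of 1 of 7 mice. The lines rise in every mouse for *Fancd2*, *Eme1*, *Rad54l*, *Rad54b*, *Brca1* and *Bard1* and fall in every mouse for *Fancc* and *Rad51d*.

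Phase shares differed between the pools in the same direction. Cells called G1 were 6.47% to 12.2% of C and 68.0% to 79.6% of N cells (5.78% to 11.4% and 67.6% to 79.3% after thinning to 5260 UMIs, which left out 1183 cells). Median UMIs per cell were 8939 to 11754 in C and 10563 to 14838 in N, and naive or memory B cell markers summed to 95.0 to 174 CPM in C and 323 to 500 CPM in N. The GC B cell markers summed to 3279 to 3600 CPM in C and 4209 to 4721 CPM in N, and the median share of mitochondrial UMIs was 2.97% to 3.42% and 3.35% to 3.88%. Their part in the result was not tested.

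Within cells called S, 17 members were still higher in C and 1 (*Fancc*) was lower (25.9% and 27.6% of all genes), in a comparison chosen after the data had been seen. *Fancd2* averaged 37.8 ± 4.01 CPM (SD, n = 7) in S-phase cells of C and 16.2 ± 4.11 CPM (SD, n = 7) in those of N, a log2 fold change of 1.37 (SE 0.10, edgeR adjusted p = 1.01e-15). *Eme1* averaged 28.4 ± 2.08 and 13.8 ± 3.64 CPM (1.24, SE 0.11, edgeR adjusted p = 8.31e-13), *Rad54l* 64.0 ± 7.56 and 44.4 ± 8.10 CPM (0.68, SE 0.07, edgeR adjusted p = 1.83e-11) and *Brca1* 133 ± 14.0 and 91.0 ± 14.3 CPM (0.66, SE 0.06, edgeR adjusted p = 9.08e-14). These differences were smaller than those over all cells, though that contrast was not tested. With library totals, under which the median of all genes in S was -0.185, 12 members were higher and 9 lower. The lower ones were *Nbn*, *Fanca*, *Mre11a*, *Fancl*, *Rad51d*, *Fancc*, *Fancm*, *Fance* and *Mus81*. Calls over all genes were not counted under that setting, so these counts cannot be set against a share of all genes.

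Within cells called G1, of 22 members tested, 0 were higher and 4 lower in C (*Fanca*, *Fancc*, *Fancl* and *Fancm*), where 18.5% of all genes were called higher and 16.6% lower, a share of lower calls close to that of the members. *Fancm* was at -0.40 (SE 0.08, edgeR adjusted p = 0.000139) and *Fanca* at -0.55 (SE 0.18, edgeR adjusted p = 0.0163). The same 4 genes were lower with library totals, a setting in which calls over all genes were not counted. The SE of *Brca1* there was 0.29.

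**Figure D5:**
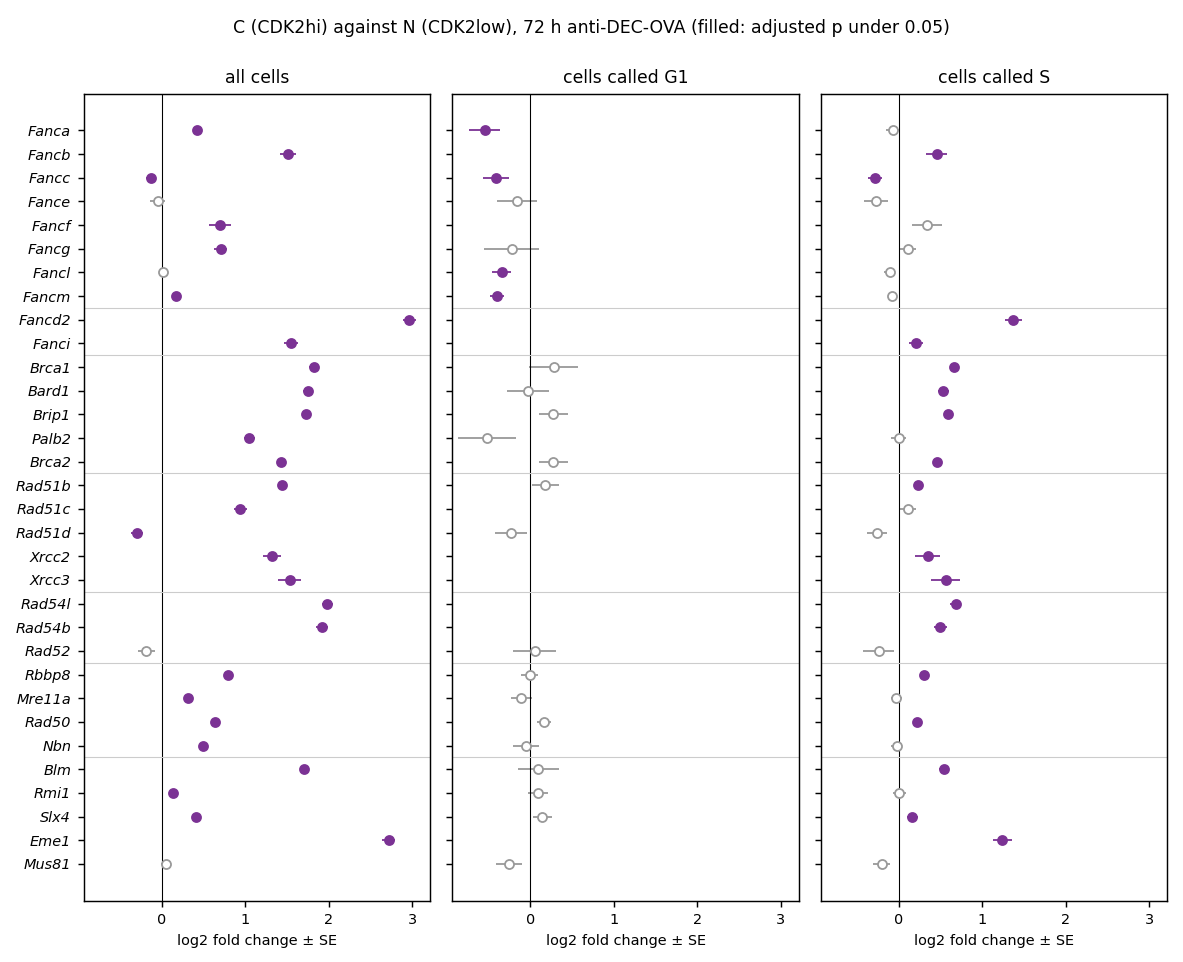
Log2 fold change ± SE of each member, C against N in 7 mice, over all cells and within cells called G1 and S, with filled points past an adjusted p of 0.05 and lines between role groups. *Fancd2* (2.96) and *Eme1* (2.72) lie furthest to the right over all cells and fall to 1.37 and 1.24 within S, and the 4 filled points within G1 lie to the left of 0.

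Other genes of the pathway and its neighbours were taken from a list. Of 44 tested among 45 listed, 27 were higher and 3 lower (*Faap100*, *Mcm9* and *Babam2*) in treated mice at 48 h (26.3% and 21.1% of all genes). *Rpa2* (0.57, SE 0.08) and *Rpa3* (0.52, SE 0.06), subunits of the single-strand binding complex RPA, *Fignl1* (0.52, SE 0.07) and the resolvase gene *Gen1* (0.52, SE 0.10) rose most (edgeR adjusted p of 3.58e-07, 4.21e-09, 2.82e-07 and 2.44e-05), and each was higher in both experiments. Within phases 2 were higher and 0 lower of 35 tested in G1 (4.05% and 3.65% of all genes). In S 4 were higher and 1 lower of 43 (7.73% and 7.15% of all genes). In G2M 4 were higher and 2 lower of 43 (8.11% and 8.42% of all genes). At 72 h 0 were higher and 1 lower (4.67% and 3.88% of all genes), the Fanconi E2 enzyme gene *Ube2t* (-0.44, SE 0.08, edgeR adjusted p = 0.000578). From 48 h to 72 h after treatment 29 fell and 3 rose (26.8% and 22.3% of all genes). In C 34 were higher and 2 lower (*Eme2* and *Ercc4*) than in N (36.5% and 38.6% of all genes). *Hrob* (3.61, SE 0.12) and *Parpbp* (3.47, SE 0.09) differed most between the pools (edgeR adjusted p of 2.22e-19 and 8.01e-22).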

How the data were processed

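Per the labels and the methods of the study, the authors aligned 5′ libraries to mm39 and made UMI counts per gene and hashtag with Cell Ranger (6.0.1 in the submitters' processing notes, a later version in the methods); whether intronic reads were counted is not given in the sources used here. The deposited counts are raw UMI counts per gene and cell. The list of mice was written by the authors. Other libraries of the series were not used here, nor were clonotypes beyond marking B1-8hi cells.

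Hashtag cutoffs came from HTODemux (Seurat 5.3.0, positive quantile 0.99). A mouse was listed with a pair of hashtags in the time course (25 mice on 15 hashtags in the larger experiment) and with a single one in C and N. A cell was assigned where the hashtags it was positive for were exactly those listed for 1 mouse, and cells with any other set, which include doublets of mice, were left out. No other doublet caller was run. Cells with under 200 genes or 10% or more mitochondrial UMIs were left out. This kept 13625, 10073, 7448 and 4385 of 16424, 18233, 9358 and 5206 cells (the mitochondrial limit removed 332 assigned cells of the larger and 3036 of the smaller experiment). In C and N 9 mice were listed, but 2 hashtags carried no cells, which left 7, and 1 hashtag in use was not listed. A hashtag counted as in use with more than 50 UMIs in at least 100 cells; this rule, and scoring phases on genes with a UMI in at least 100 cells, were chosen after seeing the data. Phases were called with CellCycleScoring (38 S and 54 G2M genes, members removed), and a mouse needed 20 cells in a phase.

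UMIs summed per mouse were tested with edgeR 4.0.16 (filterByExpr, TMM, quasi-likelihood, a term for the experiment or for the mouse in C and N, Benjamini-Hochberg, all groups in 1 fit). DESeq2 1.42.0 was an alternative. Scripts were tested on simulated data. C and N samples of 1 mouse are from the same animal by name and hashtag, and they deviated together from the pool means (correlation 0.317 to 0.785 over genes above 50 CPM, best with its own partner in 7 of 7). Depth limits low genes: the members were counted with as few as 4 UMIs per mouse (*Xrcc3*). Mice are separate animals, and in the time course p-values cover the spread between them. In C against N they cover the spread of the differences within mice, and not that between libraries. The members and gene lists were chosen with earlier results of these data known. Every member is named, and full values are given for up to 6 called members per comparison with the largest changes in the same direction in both experiments, and for at least 1 member of each role. *Rad54b* overlaps *Fsbp* on the same strand, and its counts are uncertain to that extent. One promoter stretch is not reported here.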

Additional observations from a re-analysis of the deposited data

Results flagged for a closer look

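Dixon's test was run for 32 members in each of 7 groups of mice, and 6 values lay far from their group. Chance flags about 1 in 20 groups, which is more than were found here. The 0 h mouse with 312 cells had the lowest *Fancd2* (10.1 CPM), *Rad54l* (16.6 CPM) and *Eme1* (9.07 CPM) of 9 mice. In C, 1 mouse had a low *Rbbp8* (110 CPM), 1 a low *Nbn* (36.3 CPM) and 1 a high *Rmi1* (40.6 CPM).

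The signed log2 difference between treated and untreated mice was higher at 48 h than at 72 h, by a test, for 17 members. In most of these members the values at the 2 times had opposite signs, and for *Rad51b* and *Xrcc3* the one at 72 h was the larger in size. The differences were 0.42 for *Fancb*, 0.57 for *Fancd2*, 0.40 for *Fanci*, 0.55 for *Brca1*, 0.32 for *Brip1*, 0.64 for *Brca2*, 0.25 for *Rad51b*, 0.72 for *Xrcc2*, 0.63 for *Xrcc3*, 0.51 for *Rad54l*, 0.38 for *Rad54b*, 0.26 for *Rbbp8*, 0.20 for *Rad50*, 0.31 for *Nbn*, 0.59 for *Blm*, 0.28 for *Slx4* and 0.55 for *Eme1*.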

How the results depend on the processing

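The count of 20 members called at 48 h was 10 with B1-8hi cells only, 11 with no term for the experiment and 5 in the smaller experiment alone. Over all genes 3400, 2680 and 2149 were called under these settings, against 4843 in the main test. Shares of all genes tested were not worked out for them. That of 22 between 48 h and 72 h was 13 with thinned cells, 12 with no term and 5 in the smaller experiment alone. The 17 with a higher signed difference at 48 h were 9 with B1-8hi cells only, 7 with thinned cells, 5 with no term, 0 in the smaller experiment alone and 8 with library totals. Between 0 h and 72 h untreated, DESeq2 called 1 (499 of all genes, against 451 in the main test). Within G1 1 member was called with no filter on low counts (827 of all genes), with the highest hashtag (794) and with library totals (692). The main test there called 675 of all genes. Within S the 4 members were 2 with no filter on low counts (1436 of all genes, against 1373 in the main test). They were 1 with B1-8hi cells only (738), thinned cells (786), the highest hashtag (1213), the larger experiment alone (421) and phases called on thinned cells (1285). They were 0 with no term (284) and 2 in the smaller experiment alone (677). Within G2M the 1 member was 0 with B1-8hi cells only (821 of all genes, against 1506 in the main test). It was also 0 with thinned cells (586), no term (281), library totals (1545) and the larger (733) or smaller (172) experiment alone. Reversed in the smaller experiment alone were *Bard1* (-0.054) at 48 h, *Fanci* (0.10) and *Bard1* (0.088) between 48 h and 72 h, and *Fanci* (-0.042) in the difference of effects. Reversed between C and N with library totals were *Fancl* (-0.18), *Fancm* (-0.024), *Rmi1* (-0.061) and *Mus81* (-0.14). The causes were not tested. All other totals of called members, higher and lower together, kept within 1.5 times of their value. Between C and N 27 to 28 members were called when each mouse was left out (7199 to 7566 of all genes, against 7596 with all mice). Counts in a single direction could move more. Between C and N 2 members were lower with TMM factors and 6 with library totals. The counts of the other genes of the pathway were not made under these settings. Without the mouse as a replicate block C against N gave 27 called members (7052 of all genes), the call of *Fancc* being lost (edgeR adjusted p = 0.148). Thinning and single experiments lower the depth or the number of mice, and calls lost there do not show that a difference is absent. The setting that leaves out the 0 h mouse, library totals and C against N within phases were chosen after seeing the data.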
